A study of Mus musculus with 12 samples.

Results

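The 36 genes described here encode the enzymes that make, recycle and interconvert nucleotides. They were chosen by symbol from a list of known enzymes, with earlier results of these data known. All 36 were found among the 35013 genes of the deposited tables. All 36 also passed the filter on low counts that left 13502 genes to test. For the description they were divided by role into 11 genes of the deoxynucleotide branch, 8 of the pyrimidine branch, 13 of the purine branch and 4 that serve every branch. The cells were the mouse line KP1, labelled as lung adenocarcinoma (LUAD). They carried either an empty vector (EV) or an NRF2 overexpression construct, and each line was treated for 16 h with the solvent DMSO or with 5 nM romidepsin, which gave 4 groups of 3 libraries. All cells were plated and treated in RPMI medium with fetal bovine serum. NRF2, encoded by Nfe2l2, is a transcription factor of the oxidative stress response, and romidepsin is an inhibitor of histone deacetylases. The labels name neither the promoter of the construct nor whether a line was 1 clone, they do not say that the 2 lines came from more than 1 transduction, and the series speaks of 3 biological replicates without saying what was repeated.

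Cells obtain nucleotides by building them from amino acids, carbon dioxide and one-carbon units (de novo synthesis), or by recovering bases and nucleosides (salvage). De novo purine synthesis builds the ring stepwise on activated ribose phosphate and ends in IMP, from which separate branches lead to AMP and GMP. De novo pyrimidine synthesis makes the ring first and ends in UMP, from which CTP is made. Deoxynucleotides arise when ribonucleotide reductase reduces the ribonucleotides, and the thymidylate arm adds the methyl group of thymine; many genes of this branch are known to be transcribed mainly in S phase. NRF2 is known in lung cancer cells to favour the pentose phosphate pathway and purine synthesis.

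Library totals ranged from 16842824 to 28003010 estimated counts. Levels are in CPM, computed with library sizes that TMM factors adjust, and the 3 values of a group are given in the order of the replicate numbers. A log2 fold change is followed by its standard error (SE) of the edgeR fit, and adjusted p-values are Benjamini-Hochberg values of edgeR's quasi-likelihood test over all genes tested, called under 0.05. With 3 libraries a group, p-values measure the spread between these libraries, which may be technical. Nfe2l2 read 101 to 103 CPM (DMSO) and 93.3 to 99.0 CPM (romidepsin) in EV libraries, against 281 to 352 and 339 to 365 CPM in NRF2 libraries, as the labels say. Markers of lung epithelium summed to 0.178 to 2.22 CPM over the 12 libraries, and Sftpa1 and Lamp3 had no count at all. Keratins and other general epithelial markers summed to 3748 to 9919 CPM, and endothelial markers to 4.30 to 10.4 CPM. In EV cells with DMSO Krt7, Krt8, Krt18 and Krt19 averaged 534, 1259, 1326 and 292 CPM, and Cdh1 353 CPM. The epithelial markers Epcam, Cldn3, Cldn4 and Cldn7 averaged only 0.031, 0.020, 0.119 and 0 CPM there. Immune markers summed to 11.2 to 15.1 CPM in the 6 DMSO libraries and 52.3 to 76.4 CPM in the 6 romidepsin libraries, and fibroblast markers to 1.12 to 3.21 and 9.20 to 14.1 CPM. The third NRF2 library with DMSO stood apart: 7.30% of its counts were mitochondrial against 4.84% to 6.35% in the other 11, and its root mean square log2 distance to the other replicates was 0.304 against 0.138 to 0.193. Calls of single members that changed without it are given with the comparison they belong to.

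The 250 bases upstream of the RefSeq start site are shown for 7 genes. Rrm1, Rrm2 and Tk1 were chosen as 3 genes that fell deeply. Impdh1, which has 2 annotated starts, and Impdh2 were chosen as a pair of isozymes that moved in opposite directions. Ppat and Paics were chosen as neighbours whose 5′ ends overlap on opposite strands. The sequences are from RefSeq on GRCm38.p6 and read 5′ to 3′ towards the gene. By GENCODE M21, Rrm2, Tk1 and Impdh2 start inside these windows, at chr12:24708241, chr11:117826092 and chr9:108560286. The last part of each of these windows is then within the gene. The whole Ppat window lies within Paics, and the whole Paics window within Ppat. The window of the downstream start of Impdh1 lies within Impdh1 itself. The whole Tk1 window lies within Afmid, a gene on the opposite strand. Capitals mark, on either strand, the CCAAT box (CCAAT), the E-box (CACGTG), the GC box (GGGCGG) and the E2F motif (TTTCCCGC, TTTCGCGC, TTTGCCGC or TTTGGCGC).
Rrm1 chr7:102441445-102441694, plus strand: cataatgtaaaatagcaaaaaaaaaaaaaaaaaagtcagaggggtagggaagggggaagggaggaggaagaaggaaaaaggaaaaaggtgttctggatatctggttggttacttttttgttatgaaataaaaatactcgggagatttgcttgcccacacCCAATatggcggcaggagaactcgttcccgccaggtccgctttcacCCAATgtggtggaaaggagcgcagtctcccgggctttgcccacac
Rrm2 chr12:24708004-24708253, plus strand: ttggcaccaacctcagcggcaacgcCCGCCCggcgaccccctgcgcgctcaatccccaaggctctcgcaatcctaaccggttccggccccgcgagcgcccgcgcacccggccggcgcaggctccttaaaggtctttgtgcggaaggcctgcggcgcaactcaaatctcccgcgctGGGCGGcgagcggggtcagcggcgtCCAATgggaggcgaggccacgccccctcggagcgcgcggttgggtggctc
Tk1 chr11:117826015-117826264, minus strand: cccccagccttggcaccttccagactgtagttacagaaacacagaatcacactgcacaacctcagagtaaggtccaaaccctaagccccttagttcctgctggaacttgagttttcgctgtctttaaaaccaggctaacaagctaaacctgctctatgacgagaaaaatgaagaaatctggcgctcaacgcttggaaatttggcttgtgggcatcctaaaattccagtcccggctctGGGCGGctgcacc
Impdh1, upstream start chr6:29216365-29216614, minus strand: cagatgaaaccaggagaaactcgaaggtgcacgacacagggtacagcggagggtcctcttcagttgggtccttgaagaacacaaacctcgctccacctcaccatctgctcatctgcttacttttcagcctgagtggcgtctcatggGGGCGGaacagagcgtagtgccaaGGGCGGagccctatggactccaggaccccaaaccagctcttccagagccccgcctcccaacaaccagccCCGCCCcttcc
Impdh1, downstream start chr6:29212298-29212547, minus strand: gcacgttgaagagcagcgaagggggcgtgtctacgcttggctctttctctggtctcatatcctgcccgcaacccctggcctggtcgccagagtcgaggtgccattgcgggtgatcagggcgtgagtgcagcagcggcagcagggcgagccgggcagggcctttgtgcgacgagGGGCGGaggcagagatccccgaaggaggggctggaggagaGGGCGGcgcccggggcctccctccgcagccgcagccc
Impdh2 chr9:108560186-108560435, plus strand: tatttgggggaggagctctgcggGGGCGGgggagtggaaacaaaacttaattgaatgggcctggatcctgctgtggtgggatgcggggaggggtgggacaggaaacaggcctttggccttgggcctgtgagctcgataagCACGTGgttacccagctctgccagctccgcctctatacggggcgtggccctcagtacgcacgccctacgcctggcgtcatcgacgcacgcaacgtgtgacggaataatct
Ppat chr5:76951579-76951828, minus strand: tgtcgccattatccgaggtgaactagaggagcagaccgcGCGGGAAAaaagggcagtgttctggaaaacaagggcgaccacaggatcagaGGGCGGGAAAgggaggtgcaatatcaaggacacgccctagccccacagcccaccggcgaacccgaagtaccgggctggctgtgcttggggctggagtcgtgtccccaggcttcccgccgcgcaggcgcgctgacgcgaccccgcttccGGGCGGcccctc
Paics chr5:76951052-76951301, plus strand: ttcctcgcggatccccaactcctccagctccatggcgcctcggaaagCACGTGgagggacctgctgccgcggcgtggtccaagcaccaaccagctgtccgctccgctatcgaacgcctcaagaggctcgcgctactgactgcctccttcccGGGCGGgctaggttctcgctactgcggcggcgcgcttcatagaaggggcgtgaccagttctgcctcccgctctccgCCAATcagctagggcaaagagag

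Rrm1 has 2 CCAAT boxes and no GC box in its window. Rrm2 has 1 CCAAT box and 2 GC boxes. The E2F motif was found in Ppat, where 1 match overlaps a GC box, and not in the shown windows of Rrm1, Rrm2 or Tk1. The motifs were counted in windows of 250 bases before to 50 after the start, which the RefSeq table gave for 33 of the 36 members. A GC box was in 27 of the 33 (81.8%), against 68.3% of the 10308 tested genes with a window, and in all 12 purine genes with a window. The CCAAT box was in 12 of 33 (36.4%) against 43.6%, and the E-box in 6 of 33 (18.2%) against 11.4%. The E2F motif was in 2 of 33 (6.06%) against 4.59%, in Ppat and Prps2 and in none of the 10 deoxynucleotide genes with a window. Only exact matches to the letters given were counted, so E2F sites that differ in any letter would be missed. The antioxidant response element that NRF2 binds, searched as TGACNNNGC on both strands, was in 7 of 33 (21.2%) against 16.7%. The CHR motif (TTTGAA) was in 6 of 33 (18.2%) against 14.5%. Over all 27025 genes with a window these shares were 38.2% for the GC box, 41.1% for CCAAT, 8.09% for the E-box, 2.60% for E2F, 14% for the response element and 20.2% for CHR.

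Romidepsin lowered most nucleotide enzyme genes in both lines, and the deoxynucleotide branch fell most. In EV cells 27 of the 36 genes fell and 4 rose (Impdh1, Uck2, Rrm2b and Cmpk1), where edgeR called 76.5% of all genes tested, 39.1% higher and 37.4% lower. The members' median log2 fold change was -0.46, against 0.01 over all genes tested. In NRF2 cells 28 fell and 5 rose (Impdh1, Ctps2, Uck2, Tk2 and Rrm2b), beside 79.8% of all genes called, 40.5% higher and 39.3% lower, and the median was -0.59 against 0.01. A fall of at least 2-fold was called for 5 members in EV cells (8.82% of all genes) and for 9 in NRF2 cells (12.6%). Impdh1 was the single member that rose at least 2-fold, in both lines (17.8% and 19.2% of all genes). Romidepsin libraries did not overlap DMSO libraries for 28 members that were lower and 5 that were higher in EV cells (39.9% and 41.1% of all genes), and for 28 and 4 in NRF2 cells (39% and 40.8%). With library size alone as the scaling, the median over all genes tested shifted to 0.13 in EV and 0.15 in NRF2 cells, and with that scaling or upper-quartile factors 7 members in place of 4 rose in EV cells, Tk2, Ctps2 and Guk1 being added.

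By branch, 9 of the 11 deoxynucleotide genes fell in each line, with medians of -0.80 in EV and -1.28 in NRF2 cells. Of the 13 purine genes, 10 fell in EV cells and 11 in NRF2 cells, with medians of -0.46 and -0.53. The pyrimidine branch was divided: 4 of its 8 genes fell in each line and 2 rose, with medians of -0.15 and -0.19. All 4 shared genes fell in both lines, with medians of -0.50 and -0.59. Summed over the branch, the deoxynucleotide genes held 1418 to 1505 CPM in EV libraries with DMSO and 770.5 to 802 with romidepsin, and in NRF2 libraries 1490.1 to 1510.4 and 569 to 613. The purine sum was 2719 to 2883 CPM with DMSO and 2103 to 2146 CPM with romidepsin in EV libraries, and 2616 to 2796 and 1824 to 1874 CPM in NRF2 libraries. In bulk RNA, fewer cells expressing a gene and less RNA of it per cell cannot be told apart.

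**Figure D1:**
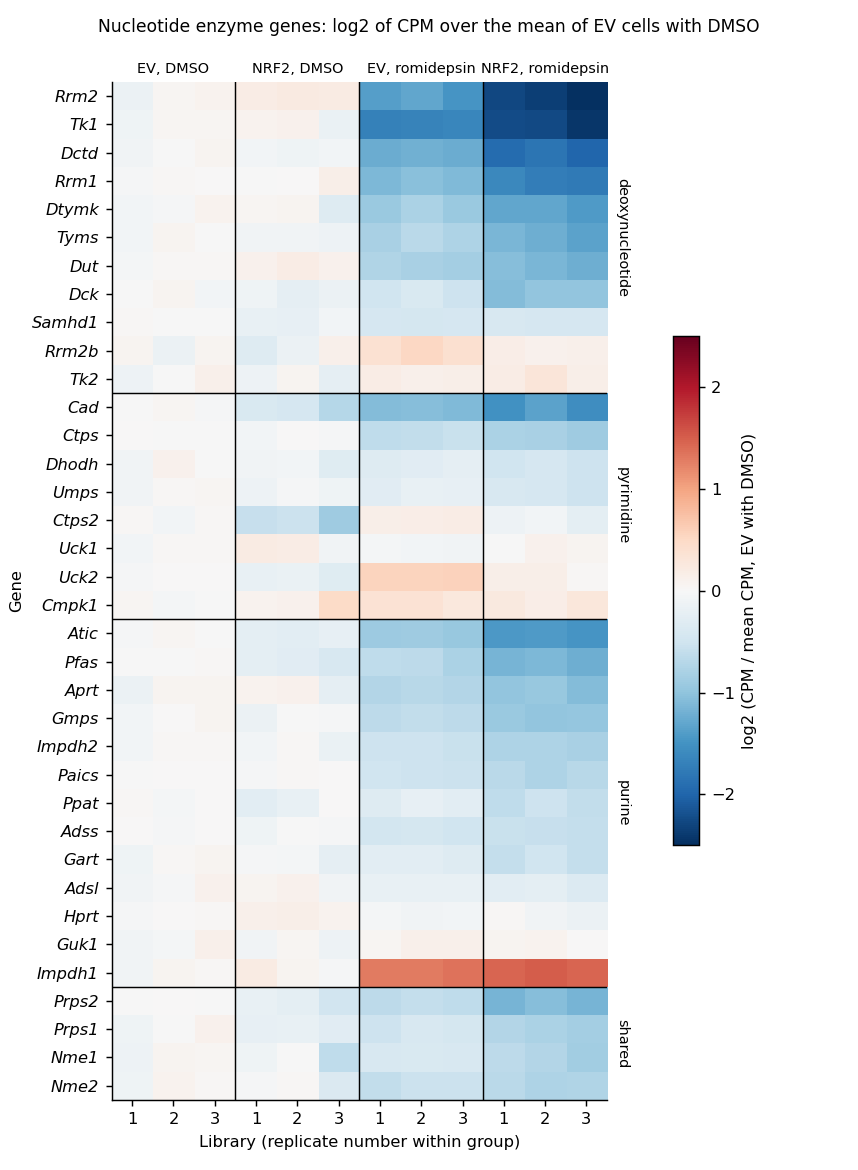
Heat map of the 36 genes (rows, by branch) in the 12 libraries (columns, by group). Colour is the log2 ratio of CPM to the mean of the 3 EV libraries with DMSO. Blue fills most rows of both romidepsin groups and is deepest for Rrm2 and Tk1 in NRF2 cells, while Impdh1 is red in all 6 romidepsin libraries.

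Ribonucleotide reductase, which makes the deoxynucleotides, is built of the large subunit Rrm1 and a small subunit, Rrm2 in S phase or Rrm2b outside it. Rrm2 (ENSMUSG00000020649.11, GENCODE M21, GRCm38 chr12:24708241-24714146) was at 229.8, 261 and 268 CPM in EV cells with DMSO, 289, 295 and 291 in NRF2 cells with DMSO, 97.6, 103 and 90.6 in EV cells with romidepsin, and 52.0, 49.4 and 45.2 in NRF2 cells with romidepsin. The groups did not overlap in any of the 4 pairwise comparisons. The log2 fold change with romidepsin was -1.38 ± 0.06 in EV cells (adjusted p = 1.4e-12) and -2.58 ± 0.07 in NRF2 cells (adjusted p = 7.8e-16), the deepest fall of any member in NRF2 cells. Rrm1 (ENSMUSG00000030978.10, chr7:102441695-102469771) was at 312, 324 and 318 CPM in EV cells with DMSO, 315, 320.5 and 352 in NRF2 cells with DMSO, 146, 154 and 147 in EV cells with romidepsin, and 104, 96.2 and 92.9 in NRF2 cells with romidepsin. It fell by 2.13-fold in EV cells (log2 -1.09 ± 0.05, adjusted p = 2.3e-12) and by 3.37-fold in NRF2 cells (log2 -1.75 ± 0.05, adjusted p = 4.3e-15), again with no overlap between romidepsin and DMSO libraries. Rrm2b (ENSMUSG00000022292.16, chr15:37923952-37961318) moved the other way, at 21.4, 18.5 and 21.4 CPM in EV cells with DMSO, 16.4, 18.5 and 22.2 in NRF2 cells with DMSO, 26.6, 29.2 and 26.9 in EV cells with romidepsin, and 23.0, 22.0 and 22.4 in NRF2 cells with romidepsin. The rise was 0.43 ± 0.09 in EV cells (adjusted p = 3.9e-04), where the groups did not overlap, and 0.25 ± 0.09 in NRF2 cells (adjusted p = 0.023), where they did. The rise in NRF2 cells missed the threshold without the first or the second NRF2 library with DMSO or the first with romidepsin, with an adjusted p of up to 0.14. A short annotated gene, Gm3362, lies inside Rrm2b on the same strand, and it stayed under 1 CPM on average in every group.

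The thymidylate arm showed the same division between an S-phase enzyme and its counterpart. Tk1, the cytosolic thymidine kinase (ENSMUSG00000025574.13, chr11:117815526-117826092), was at 137, 153 and 152 CPM in EV cells with DMSO, 157, 158 and 132 in NRF2 cells with DMSO, 45.5, 46.0 and 47.3 in EV cells with romidepsin, and 31.1, 31.0 and 27.5 in NRF2 cells with romidepsin. In EV cells this was the deepest fall of any member, at -1.67 ± 0.07 (adjusted p = 7.2e-13), and in NRF2 cells the fall was -2.32 ± 0.07 (adjusted p = 1.1e-14). Every romidepsin library was below every DMSO library, by a margin far over the spread within groups. Afmid overlaps the 5′ end of Tk1 on the opposite strand and averaged 25.8 CPM (DMSO) and 17.8 CPM (romidepsin) in EV cells. Tk2, the mitochondrial thymidine kinase, was at 20.3, 22.0 and 24.3 CPM in EV cells with DMSO, 20.4, 23.2 and 19.03 in NRF2 cells with DMSO, 25.3, 24.1 and 24.7 in EV cells with romidepsin, and 25.2, 27.2 and 24.6 in NRF2 cells with romidepsin. It rose in NRF2 cells (0.29 ± 0.08, adjusted p = 0.0031), and in EV cells its change was 0.15 ± 0.08 with overlapping groups (adjusted p = 0.11).

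Tyms, the thymidylate synthase, was at 75.5, 82.4 and 78.6 CPM in EV cells with DMSO, 73.7, 74.4 and 72.7 in NRF2 cells with DMSO, 44.9, 49.1 and 46.1 in EV cells with romidepsin, and 35.6, 33.7 and 31.0 in NRF2 cells with romidepsin. The fall was -0.75 ± 0.05 in EV cells (adjusted p = 7.6e-10) and -1.14 ± 0.06 in NRF2 cells (adjusted p = 2.8e-12). Dtymk, the thymidylate kinase that takes dTMP to dTDP, was at 63.1, 64.4 and 70.6 CPM in EV cells with DMSO, 68.6, 69.2 and 53.0 in NRF2 cells with DMSO, 34.5, 38.3 and 34.8 in EV cells with romidepsin, and 27.0, 26.7 and 24.6 in NRF2 cells with romidepsin. It fell by 1.84-fold in EV cells (adjusted p = 1.6e-07) and by 2.44-fold in NRF2 cells (adjusted p = 1.8e-09). For both genes all romidepsin libraries were below all DMSO libraries of the same line. The enzymes that feed dUMP to Tyms fell as well. Dctd, the dCMP deaminase, was at 86.9, 91.7 and 96.7 CPM in EV cells with DMSO, 87.5, 85.2 and 87.5 in NRF2 cells with DMSO, 38.6, 40.1 and 39.1 in EV cells with romidepsin, and 24.2, 25.9 and 23.3 in NRF2 cells with romidepsin, a change of -1.23 ± 0.05 in EV cells (adjusted p = 5.1e-13) and -1.82 ± 0.05 in NRF2 cells (adjusted p = 3.5e-15). Dut, which hydrolyses dUTP and so keeps uracil out of DNA, was at 191, 201 and 203 CPM in EV cells with DMSO, 215, 226 and 213 in NRF2 cells with DMSO, 118, 113 and 109.5 in EV cells with romidepsin, and 95.0, 89.5 and 84.5 in NRF2 cells with romidepsin. Its change was -0.80 ± 0.05 in EV cells (adjusted p = 1.0e-10) and -1.28 ± 0.05 in NRF2 cells (adjusted p = 1.5e-13).

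Dck, the salvage kinase for deoxycytidine, was at 52.6, 56.1 and 50.9 CPM in EV cells with DMSO, 49.4, 45.7 and 48.2 in NRF2 cells with DMSO, 37.6, 40.9 and 37.3 in EV cells with romidepsin, and 25.2, 26.7 and 26.7 in NRF2 cells with romidepsin. The fall of -0.46 ± 0.06 in EV cells (adjusted p = 9.6e-07) was smaller than those of Rrm2 and Tk1, and the fall in NRF2 cells was -0.86 ± 0.06 (adjusted p = 2.7e-10). Samhd1 breaks deoxynucleotides down and so works against the other genes of its branch. It was at 229, 222 and 221 CPM in EV cells with DMSO, 198, 194 and 212 in NRF2 cells with DMSO, 167, 166 and 167 in EV cells with romidepsin, and 171, 168 and 166 in NRF2 cells with romidepsin, and it fell too, by 1.34-fold in EV cells (adjusted p = 5.2e-08) and 1.20-fold in NRF2 cells (adjusted p = 2.1e-05). The 6 romidepsin libraries lay within 166 to 171 CPM for Samhd1, below all 6 DMSO libraries.

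A list of 15 S phase and proliferation markers moved with the deoxynucleotide branch. Pcna, the Mcm genes, Cdc6, Cdt1, the E and A cyclins, Mki67, Top2a and Cdk1 summed to 3911 to 4137 CPM in the EV and 3833 to 4090 CPM in the NRF2 libraries with DMSO. With romidepsin the sums were 1976 to 2087 and 1366 to 1412 CPM. Of the 15, 14 fell with romidepsin in each line, where 37.4% and 39.3% of all genes fell (medians -0.92 and -1.53), and no marker was at 0. Cdt1, which licenses replication origins, changed by -1.36 ± 0.08 in EV cells (adjusted p = 4.2e-10), and Mcm3, a subunit of the replicative helicase, by -1.95 ± 0.06 in NRF2 cells (adjusted p = 2.2e-15). The part of the share of cycling cells in the fall of the deoxynucleotide genes was not tested.

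**Figure D2:**
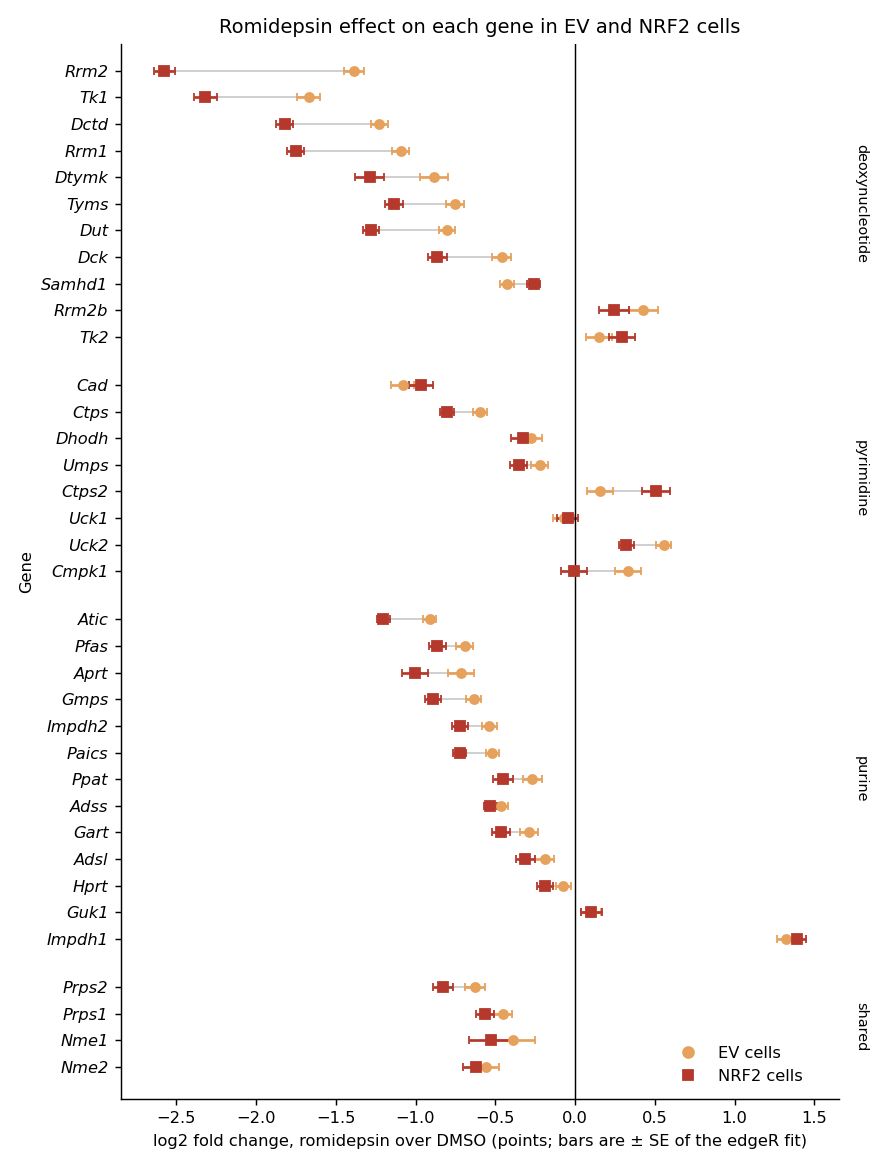
Log2 fold change with romidepsin (x axis, points, with bars of ± 1 SE from edgeR) of each of the 36 genes (y axis, by branch) in EV cells (circles) and NRF2 cells (squares). The squares of Rrm2, Tk1, Dctd and Rrm1 lie well to the left of the circles, and Impdh1 stands alone beyond 1 on the right in both lines.

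In the pyrimidine branch, the enzymes of de novo synthesis fell and a salvage enzyme rose. Cad carries the first 3 steps of de novo synthesis on 1 protein (ENSMUSG00000013629.16, chr5:31054780-31078479) and was at 331, 347 and 329 CPM in EV cells with DMSO, 256, 249.4 and 204 in NRF2 cells with DMSO, 158, 161 and 157 in EV cells with romidepsin, and 117, 132 and 114 in NRF2 cells with romidepsin. The fall was -1.08 ± 0.07 in EV cells (adjusted p = 1.8e-09) and -0.96 ± 0.07 in NRF2 cells (adjusted p = 6.0e-09). Dhodh, the mitochondrial dihydroorotate dehydrogenase, fell by 1.21-fold in EV cells (adjusted p = 0.0017) and 1.26-fold in NRF2 cells (adjusted p = 3.5e-04). Umps, which completes UMP, fell by 1.17-fold (adjusted p = 8.2e-04) and 1.28-fold (adjusted p = 6.2e-06). Both were thus far below the size of the Cad change, and with library size alone as the scaling neither fall was called in EV cells (adjusted p = 0.053 for Dhodh and 0.069 for Umps).

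CTP is made from UTP by 2 synthases. Ctps, the main one by level per length, was at 158, 157 and 157 CPM in EV cells with DMSO, 151, 159 and 155 in NRF2 cells with DMSO, 102, 103 and 107 in EV cells with romidepsin, and 91.5, 90.2 and 84.6 in NRF2 cells with romidepsin, and fell by 1.51-fold in EV cells (adjusted p = 9.5e-10) and 1.74-fold in NRF2 cells (adjusted p = 1.3e-11). Ctps2 was at 20.3, 19.01 and 20.3 CPM in EV cells with DMSO, 13.4, 13.7 and 10.7 in NRF2 cells with DMSO, 22.0, 22.2 and 22.5 in EV cells with romidepsin, and 18.3, 18.9 and 16.8 in NRF2 cells with romidepsin. It rose in NRF2 cells (0.51 ± 0.09, adjusted p = 3.8e-05), from a lower level with DMSO than in EV cells, while the difference in EV cells was 0.16 ± 0.08 (adjusted p = 0.095). That difference was called in 5 of 22 alternatives, among them the fit without the third NRF2 library with DMSO (0.16, adjusted p = 0.033).

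Uridine is salvaged by the uridine-cytidine kinases. Uck2 (ENSMUSG00000026558.13, chr1:167222883-167285320) was at 181, 186 and 186 CPM in EV cells with DMSO, 163, 165 and 149 in NRF2 cells with DMSO, 269.8, 270.1 and 274 in EV cells with romidepsin, and 205, 203 and 189 in NRF2 cells with romidepsin. It rose in both lines, by 0.56 ± 0.05 in EV cells (adjusted p = 5.5e-09) and 0.32 ± 0.05 in NRF2 cells (adjusted p = 5.5e-06), with no overlap between romidepsin and DMSO libraries. Uck1 was at 49.8, 53.9 and 53.9 CPM in EV cells with DMSO, 60.3, 59.5 and 49.3 in NRF2 cells with DMSO, 50.8, 49.8 and 49.4 in EV cells with romidepsin, and 52.4, 56.6 and 55.2 in NRF2 cells with romidepsin. Its change with romidepsin was -0.07 ± 0.07 in EV cells and -0.05 ± 0.07 in NRF2 cells, neither called (adjusted p = 0.34 and 0.52), and groups overlapped. Without the third NRF2 library with DMSO, which was the lowest of its group, a fall was called in NRF2 cells (-0.15, adjusted p = 0.0073). The 3′ end of Uck1 touches Pomt1 on the opposite strand, which averaged 52.8 CPM with DMSO and 22.2 CPM with romidepsin in EV cells. Cmpk1, the kinase of UMP and CMP, was at 43.7, 41.3 and 42.3 CPM in EV cells with DMSO, 44.8, 45.9 and 59.4 in NRF2 cells with DMSO, 54.5, 54.7 and 51.1 in EV cells with romidepsin, and 49.9, 47.6 and 51.4 in NRF2 cells with romidepsin. It rose in EV cells (0.33 ± 0.08, adjusted p = 0.0017), and in NRF2 cells the difference was -0.00 ± 0.08 (adjusted p = 0.96), where the third library with DMSO, at 59.4 CPM, was above all 3 with romidepsin.

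In the purine branch, all 6 enzymes of the de novo path to IMP fell in both lines. Ppat, the committed first step (ENSMUSG00000029246.14, chr5:76913249-76951578), was at 89.7, 85.1 and 88.7 CPM in EV cells with DMSO, 73.4, 77.6 and 88.2 in NRF2 cells with DMSO, 69.9, 75.9 and 73.0 in EV cells with romidepsin, and 56.5, 61.1 and 57.0 in NRF2 cells with romidepsin. The fall was -0.27 ± 0.06 in EV cells (adjusted p = 6.4e-04) and -0.45 ± 0.06 in NRF2 cells (adjusted p = 2.6e-06). Paics, its head-to-head neighbour (ENSMUSG00000029247.17, chr5:76951307-76967509), catalyses later steps of the path and was at 500.3, 504 and 506 CPM in EV cells with DMSO, 496, 515 and 509.9 in NRF2 cells with DMSO, 355, 351 and 346 in EV cells with romidepsin, and 314, 295 and 313 in NRF2 cells with romidepsin. Its change was -0.52 ± 0.04 in EV cells (adjusted p = 2.1e-09) and -0.72 ± 0.04 in NRF2 cells (adjusted p = 1.7e-11). Both genes of the shared locus thus fell, and for both the romidepsin libraries were below all DMSO libraries of their line. Whether the counting used strand is not given in the sources used here, so reads from the overlap of the 2 genes cannot be told apart.

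Pfas, another enzyme of the path, was at 121, 121 and 124 CPM in EV cells with DMSO, 102, 101 and 92.4 in NRF2 cells with DMSO, 78.1, 77.5 and 70.3 in EV cells with romidepsin, and 54.1, 55.7 and 52.4 in NRF2 cells with romidepsin. Its change was -0.69 ± 0.05 in EV cells (adjusted p = 1.3e-09) and -0.86 ± 0.05 in NRF2 cells (adjusted p = 5.7e-11). Atic, which performs the last 2 steps to IMP (ENSMUSG00000026192.13, chr1:71557150-71579631), was at 275, 291 and 280.3 CPM in EV cells with DMSO, 239.6, 234 and 245 in NRF2 cells with DMSO, 151, 152 and 147 in EV cells with romidepsin, and 105, 105 and 102 in NRF2 cells with romidepsin. This was the deepest purine fall, at -0.91 ± 0.04 in EV cells (adjusted p = 1.2e-12) and -1.20 ± 0.04 in NRF2 cells (adjusted p = 2.3e-14). Gart and Adsl, the remaining enzymes of the path, fell less. Gart changed by -0.29 ± 0.06 in EV cells (adjusted p = 1.7e-04) and -0.46 ± 0.06 in NRF2 cells (adjusted p = 6.8e-07). Adsl changed by -0.19 ± 0.06 (adjusted p = 0.0068) and -0.31 ± 0.06 (adjusted p = 9.7e-05), and in EV cells its call was lost with upper-quartile factors, with library size alone and without the third EV library with DMSO (adjusted p of up to 0.27).

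From IMP, Adss leads towards AMP and the IMP dehydrogenases Impdh1 and Impdh2 with Gmps lead to GMP. Adss fell by 1.38-fold in EV cells (adjusted p = 1.2e-08) and 1.45-fold in NRF2 cells (adjusted p = 1.5e-09). Impdh1 (ENSMUSG00000003500.13, chr6:29200434-29216364) was at 79.7, 88.5 and 86.5 CPM in EV cells with DMSO, 97.4, 88.9 and 83.4 in NRF2 cells with DMSO, 209.6, 209 and 218 in EV cells with romidepsin, and 232, 243 and 233 in NRF2 cells with romidepsin. Every romidepsin library was above every DMSO library, and the rise was 1.32 ± 0.06 in EV cells (adjusted p = 5.3e-13) and 1.39 ± 0.06 in NRF2 cells (adjusted p = 1.6e-13). Impdh2, the isozyme known to rise with proliferation (ENSMUSG00000062867.13, chr9:108560286-108565584), was at 473, 502 and 503 CPM in EV cells with DMSO, 472, 502 and 439 in NRF2 cells with DMSO, 343, 342 and 333 in EV cells with romidepsin, and 288, 289 and 280.0 in NRF2 cells with romidepsin. It fell by 1.45-fold in EV cells (adjusted p = 1.6e-08) and 1.65-fold in NRF2 cells (adjusted p = 2.2e-10), so the 2 enzymes of the same step moved in opposite directions. The 3′ end of Impdh2 overlaps Ndufaf3 on the opposite strand, which averaged 6.42 CPM with DMSO and 14.8 CPM with romidepsin in EV cells, the other way from Impdh2.

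Gmps, the GMP synthetase, was at 236, 251 and 259 CPM in EV cells with DMSO, 224, 246 and 242 in NRF2 cells with DMSO, 159, 163 and 159 in EV cells with romidepsin, and 131, 126 and 128 in NRF2 cells with romidepsin. The fall was -0.63 ± 0.05 in EV cells (adjusted p = 1.2e-09) and -0.89 ± 0.05 in NRF2 cells (adjusted p = 9.1e-12). The salvage enzymes did not move as a block. Aprt, which recovers adenine, was at 259.8, 301 and 301 CPM in EV cells with DMSO, 304, 309.9 and 244 in NRF2 cells with DMSO, 173, 179 and 172 in EV cells with romidepsin, and 145, 149 and 135 in NRF2 cells with romidepsin, and it fell by 1.64-fold in EV cells (adjusted p = 1.4e-06) and 2.003-fold in NRF2 cells (adjusted p = 2.9e-08). Hprt, which recovers hypoxanthine and guanine, changed by -0.07 ± 0.05 in EV cells (adjusted p = 0.17) and by -0.19 ± 0.05 in NRF2 cells (adjusted p = 0.0014), where upper-quartile factors and library size alone ended the call (adjusted p of up to 0.34). Guk1, the guanylate kinase, stayed within 35.0 to 41.7 CPM in all 12 libraries and was not called in either line (adjusted p = 0.17 and 0.14).

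The shared genes fell in both lines. Prps1 and Prps2 make the activated ribose phosphate that both ring syntheses and salvage consume. Prps1 was at 80.1, 85.6 and 92.0 CPM in EV cells with DMSO, 74.5, 75.2 and 70.8 in NRF2 cells with DMSO, 60.1, 65.4 and 63.3 in EV cells with romidepsin, and 52.0, 49.7 and 47.4 in NRF2 cells with romidepsin, a change of -0.45 ± 0.06 in EV cells (adjusted p = 1.0e-06) and -0.56 ± 0.06 in NRF2 cells (adjusted p = 5.9e-08). Prps2 was at 65.9, 66.9 and 65.2 CPM in EV cells with DMSO, 58.0, 55.4 and 47.4 in NRF2 cells with DMSO, 42.0, 43.7 and 42.4 in EV cells with romidepsin, and 29.5, 31.7 and 29.4 in NRF2 cells with romidepsin. Its falls were -0.63 ± 0.06 in EV cells (adjusted p = 6.1e-08) and -0.83 ± 0.07 in NRF2 cells (adjusted p = 1.8e-09). For both genes no romidepsin library reached the level of a DMSO library of its line.

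Nme1 and Nme2 are the nucleoside diphosphate kinases that make triphosphates of every base. Nme1 was at 151, 174 and 172 CPM in EV cells with DMSO, 154, 165 and 106 in NRF2 cells with DMSO, 126, 128 and 126 in EV cells with romidepsin, and 105, 100.1 and 91.0 in NRF2 cells with romidepsin. The third NRF2 library with DMSO was far below the other 2 of its group. Nme1 fell by 1.31-fold in EV cells (adjusted p = 0.026) and 1.44-fold in NRF2 cells (adjusted p = 0.0055), and the call in EV cells was lost in 8 of 22 alternatives, among them the fits without the second EV library with DMSO, without the third, or without any single EV library with romidepsin (adjusted p of up to 0.097). Nme2 was at 369, 423 and 405 CPM in EV cells with DMSO, 391, 406 and 312 in NRF2 cells with DMSO, 262, 276 and 275 in EV cells with romidepsin, and 249.6, 235 and 237 in NRF2 cells with romidepsin, and fell by 1.47-fold in EV cells (adjusted p = 1.5e-05) and 1.54-fold in NRF2 cells (adjusted p = 4.2e-06). Another annotated gene, Gm20390, overlaps both on the same strand and held 240.2 ± 13.4 CPM (SD, n = 3) in EV cells with DMSO, so the division of reads among the 3 is uncertain.

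**Figure D3:**
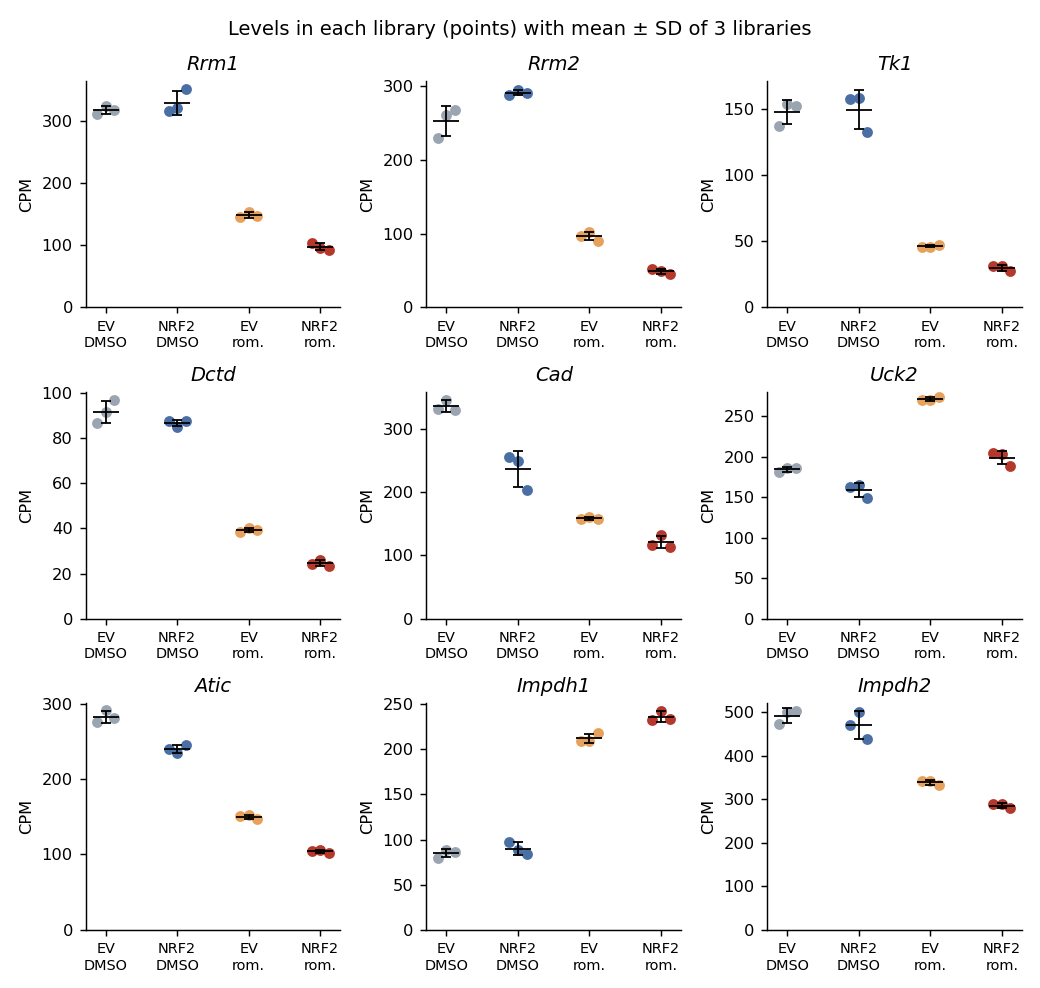
CPM of 9 genes (panels, linear axes from 0) in each library (points) of the 4 groups, with horizontal lines at the mean and bars of ± 1 SD over 3 libraries. Uck2 and Impdh1 are higher with romidepsin, and the other 7 are lower. For Rrm1, Rrm2, Tk1 and Dctd the NRF2 libraries with romidepsin lie lowest.

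Without romidepsin the 2 lines differed little in these genes. The comparison of NRF2 with EV cells in DMSO called 9 members lower and 3 higher of 36, beside 36.3% of all genes tested (19.3% higher, 16.9% lower), so the members' share, 12 of 36, was near the background. No member was called at 2-fold or more (3.84% of all genes were higher and 2.38% lower by that rule), and the groups did not overlap for 4 members that were higher (21.8%) and 10 that were lower (20.7%). Ctps2 was lowest relative to EV cells (-0.65 ± 0.09, adjusted p = 1.5e-05), followed by Cad (-0.50 ± 0.07, adjusted p = 5.9e-05). The purine genes Pfas (-0.30, adjusted p = 1.6e-04) and Atic (-0.24, adjusted p = 1.7e-04), the shared genes Prps2 (-0.30, adjusted p = 0.0011) and Prps1 (-0.23, adjusted p = 0.004), and Uck2, Samhd1 and Dck were also lower. The other 11 purine genes were not called in either direction. Without the third NRF2 library with DMSO Ppat was called lower (-0.21, adjusted p = 4.6e-04), and Hprt (0.14, adjusted p = 0.012) and Impdh1 (0.14, adjusted p = 0.023) were called higher. Hprt was also called higher with a filter of 1 CPM, with limma-voom and without the first NRF2 library with romidepsin, and Ppat lower with library size alone. The fit without the third NRF2 library with DMSO also called Uck1 higher (0.19, adjusted p = 0.0022) and Rrm2b lower (-0.23, adjusted p = 0.02). The 3 that were higher were Cmpk1 (0.23 ± 0.08, adjusted p = 0.042), Rrm2 (0.20 ± 0.06, adjusted p = 0.014) and Dut (0.14 ± 0.05, adjusted p = 0.036). This count of 3 was 5 without the third NRF2 library with DMSO, 0 without the first EV library with DMSO, and 1 without the second EV library with DMSO or the second romidepsin library of either line. Cmpk1 and Dck each lost their call in 13 of 22 alternatives, Cmpk1 also without the third NRF2 library, at 59.4 CPM against 44.8 and 45.9 CPM in the others. Rrm2 lost it without the first EV library with DMSO (adjusted p = 0.085), and Samhd1 without the second NRF2 library with DMSO. Dut lost it in 9 of 22, among them without the first or the second EV library with DMSO, and without the second library of any other group.

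Under romidepsin the lines differed in most members. NRF2 cells were lower than EV cells in 26 of the 36 genes and higher in 1, beside 45.4% of all genes called (23% higher, 22.4% lower), and the median difference was -0.30 against 0.00 over all genes tested. The groups did not overlap for 29 members that were lower (30.4%) and 2 that were higher (30.8%), and none passed 2-fold (4.1% of all genes higher, 1.47% lower). By branch 9 of 11 deoxynucleotide, 6 of 8 pyrimidine, 9 of 13 purine and 2 of 4 shared genes were lower. The other 2 shared genes, Nme1 (-0.36 ± 0.14, adjusted p = 0.061) and Nme2 (-0.17 ± 0.08, adjusted p = 0.095), missed the threshold, although their groups did not overlap. Both were called lower with the 2 groups fitted alone and without the third NRF2 library with DMSO (-0.37, adjusted p = 3.8e-06 for Nme1 and -0.19, adjusted p = 2.2e-04 for Nme2), and Nme1 in 6 of 22 alternatives in all. Rrm2 differed most (-0.99 ± 0.07, adjusted p = 4.8e-09), followed by Dctd (-0.68 ± 0.06, adjusted p = 6.1e-08), Tk1 (-0.63 ± 0.07, adjusted p = 3.6e-06) and Rrm1 (-0.61 ± 0.05, adjusted p = 9.2e-08). In the purine branch Atic (-0.53 ± 0.04, adjusted p = 3.4e-08), Pfas (-0.48 ± 0.05, adjusted p = 1.8e-06) and Ppat (-0.32 ± 0.06, adjusted p = 3.6e-04) led. In the pyrimidine branch it was Uck2 (-0.45 ± 0.05, adjusted p = 7.9e-07), Cad (-0.39 ± 0.07, adjusted p = 5.6e-04) and Ctps2 (-0.30 ± 0.08, adjusted p = 0.0073), and among the shared genes Prps2 (-0.50 ± 0.07, adjusted p = 1.1e-05). Impdh1 was the member that was higher in NRF2 cells (0.15 ± 0.05, adjusted p = 0.027), and this call was lost in 5 of 22 alternatives, with an adjusted p of up to 0.11. It was lost without the first or second EV library with romidepsin and without any single NRF2 library with romidepsin, and without the third NRF2 library with DMSO Uck1 was called higher as well (0.12, adjusted p = 0.032) and Cmpk1 lower (-0.12, adjusted p = 0.025). Both were also called with the 2 groups fitted alone. The 15 S phase markers were all lower in NRF2 than in EV cells under romidepsin (median -0.53).

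The interaction tests whether romidepsin acted differently in the 2 lines, as the effect in NRF2 cells minus that in EV cells. It called 13 of the 36 genes, all more negative in NRF2 cells, beside 15.8% of all genes tested (5.53% higher, 10.2% lower). Of the 13, 8 belonged to the deoxynucleotide branch (8 of its 11 genes, median -0.40), 3 to the purine branch (of 13, median -0.17), 2 to the pyrimidine branch (of 8, median -0.09) and none to the shared genes (median -0.13), against -0.02 over all genes tested. Rrm2 had the largest difference, -1.19 ± 0.09 (adjusted p = 2.1e-07), and it was the single member past 2-fold (0.963% of all genes lower and 0.867% higher by that rule). Rrm1 (-0.66 ± 0.07, adjusted p = 1.4e-05), Tk1 (-0.65 ± 0.10, adjusted p = 3.1e-04) and Dctd (-0.59 ± 0.07, adjusted p = 4.8e-05) followed. Over the 12 fits that each left out 1 library, Rrm2 ranged from -1.25 to -1.13, Rrm1 from -0.72 to -0.62, Tk1 from -0.74 to -0.60 and Dctd from -0.64 to -0.56. Dut (-0.48 ± 0.07, adjusted p = 2.2e-04), Dck (-0.40 ± 0.08, adjusted p = 0.0029) and Tyms (-0.38 ± 0.08, adjusted p = 0.0029) also kept their calls in every alternative. Dtymk (-0.40 ± 0.13, adjusted p = 0.04) lost it in 11 of 21, with an adjusted p of up to 0.11; it kept the call in the fits that left out the third library of either line with DMSO or the first NRF2 library with romidepsin, and in no other fit without 1 library. The 3 deoxynucleotide genes not called were Rrm2b (-0.18 ± 0.13), Tk2 (0.15 ± 0.12) and Samhd1 (0.17 ± 0.06, adjusted p = 0.067).

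Outside that branch the differences between the lines were smaller. Atic (-0.29 ± 0.06, adjusted p = 0.0024) kept its call in all 21 alternatives. Gmps (-0.26 ± 0.07, adjusted p = 0.015), Uck2 (-0.23 ± 0.07, adjusted p = 0.022), Paics (-0.20 ± 0.06, adjusted p = 0.022) and Ctps (-0.21 ± 0.06, adjusted p = 0.032) lost theirs in 1, 3, 4 and 9 of 21. All 4 lost it without the second EV library with romidepsin. Paics also lost it without the first of that group, the second EV library with DMSO or the second NRF2 library with romidepsin, and Uck2 without the third romidepsin library of either line. Ctps lost it in 7 of the 12 fits without 1 library. Without the third NRF2 library with DMSO, 22 members were called more negative in NRF2 cells in place of 13: 8 deoxynucleotide, 8 purine, 3 pyrimidine and 3 shared genes. The 9 added were Aprt (-0.40, adjusted p = 1.5e-04), Impdh2, Gart, Pfas and Adsl of the purine branch, Cmpk1, and the shared genes Nme1 (-0.32, adjusted p = 0.0041), Prps2 and Nme2. The median of the shared genes was then -0.24 in place of -0.13, and Samhd1 was called more positive (0.19, adjusted p = 0.0073). Without the second EV library with romidepsin 8 members were called, 7 of them deoxynucleotide genes and 1 a purine gene. For these fits without 1 library the share of all genes called is not given here. The counts of 22 and 8 therefore have no background beside them. Of the 15 S phase markers, 13 were also called more negative in NRF2 cells in the main fit (median -0.61), beside 10.2% of all genes. Among them were Mcm3 (-0.76 ± 0.08, adjusted p = 5.0e-06) and Cdc6 (-0.76 ± 0.08, adjusted p = 8.9e-06). Their part in the difference between the lines was not tested.

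**Figure D4:**
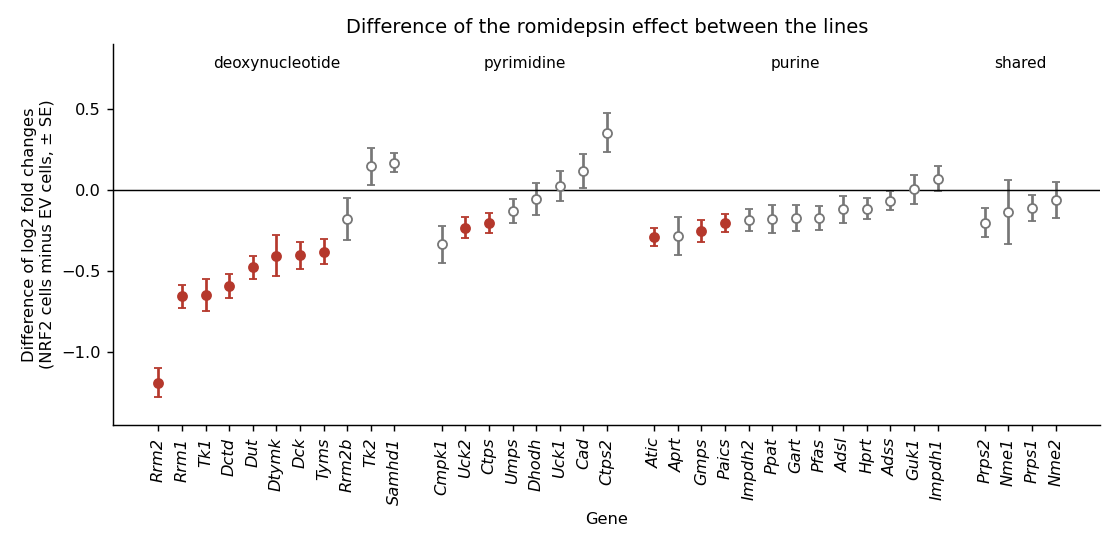
Difference of the romidepsin effect between the lines (y axis, log2 fold change in NRF2 cells minus that in EV cells, with bars of ± 1 SE from edgeR) for the 36 genes by branch. Filled points are called at an adjusted p under 0.05: 8 in the deoxynucleotide branch, 2 in the pyrimidine branch, 3 in the purine branch and none among the shared genes.

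For 7 pairs of enzymes that catalyse the same kind of step, the share of the first gene in the summed CPM per kilobase of the pair was followed, using the longest coding transcript of each gene in GENCODE M21. The transcript in use may be shorter, which would shift a pair's shares in every group. Impdh1 held 11.0% ± 0.219 of its pair with Impdh2 in EV cells with DMSO and 30.9% ± 0.863 with romidepsin (SD, n = 3), and in NRF2 cells 12.01% ± 0.813 and 37.1% ± 0.531. Rrm2b held 3.76% ± 0.503 against Rrm2 in EV cells with DMSO and 12.04% ± 0.452 with romidepsin, and in NRF2 cells 3.04% ± 0.457 and 18.1% ± 0.943. Tk2 held 8.27% ± 0.427 against Tk1 and 24.2% ± 0.665 with romidepsin in EV cells, and 7.73% ± 0.451 and 34.0% ± 1.24 in NRF2 cells. For these 3 pairs no romidepsin library overlapped a DMSO library. Their source differed: Impdh1 rose as Impdh2 fell, while for Rrm2b and Tk2 the fall of the partner was the larger part. Ctps2 held 9.25% ± 0.322 against Ctps in EV cells and 14.7% ± 0.166 with romidepsin, and 6.15% ± 0.768 and 14.04% ± 0.367 in NRF2 cells. For this pair too no romidepsin library overlapped a DMSO library. Uck1 lost share to Uck2, from 40.2% ± 0.662 to 30.3% ± 0.447 in EV cells and from 45.4% ± 1.47 to 39.4% ± 1.59 in NRF2 cells. Prps2 went from 29.0% ± 1.54 to 26.5% ± 0.496 against Prps1 in EV cells and from 27.9% ± 1.53 to 24.4% ± 1.16 in NRF2 cells. Nme2 stayed between 87.0% and 89.2% on average in every group, and between 68.1% and 72.5% by CPM without the lengths. Since Gm20390 overlaps Nme1 and Nme2, this share is uncertain. Shares are described without a test.

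**Figure D5:**
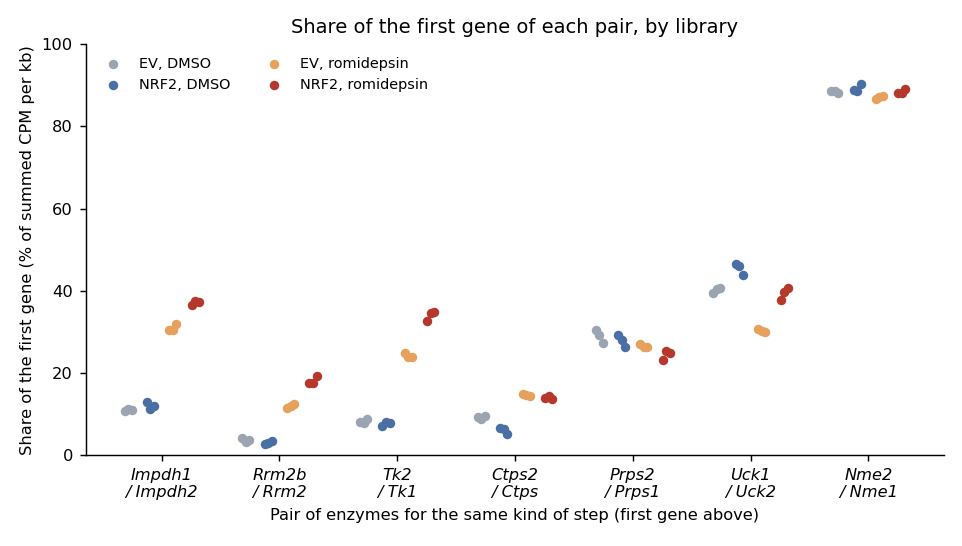
Share of the first-named gene (y axis, % of the summed CPM per kb of the pair, from 0 to 100) in 7 pairs of enzymes (x axis), with 1 point per library coloured by group. The shares of Impdh1, Rrm2b, Tk2 and Ctps2 are higher in all romidepsin libraries than in all DMSO libraries. That of Uck1 is lower with romidepsin within each line.

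Levels per kilobase spread widely within the pathway. In EV cells with DMSO the highest was Nme2 at 394 ± 26.8 CPM per kb, followed by Aprt at 338 ± 27.7, Impdh2 at 265 ± 9.21 and Paics at 203 ± 1.10. Nme2 and Aprt differed by little more than their summed SDs, while Aprt, Impdh2 and Paics were further apart than theirs. The level of Nme2 also rests on the uncertain division of reads with Gm20390. The lowest were Tk2 at 9.23 ± 0.835, Ctps2 at 5.93 ± 0.224 and Rrm2b at 4.48 ± 0.374 CPM per kb (SD, n = 3). In NRF2 cells with romidepsin Rrm2 was at 22.3 ± 1.56 CPM per kb and Impdh1 at 90.8 ± 2.25, where in EV cells with DMSO Rrm2 had been at 115 ± 9.34 and Impdh1 at 32.7 ± 1.78.

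The genes around the pathway were read from lists. The folate genes supply the one-carbon units for purines and thymidylate. Of 12 tested, 11 fell in each line with romidepsin and none rose (medians -1.04 and -1.31), beside 37.4% of all genes lower in EV cells and 39.3% in NRF2 cells. Mthfd1l, a mitochondrial formate enzyme, changed by -2.26 ± 0.06 in EV cells (adjusted p = 2.1e-15) and -2.69 ± 0.06 in NRF2 cells (adjusted p = 2.3e-16), and Shmt2, the mitochondrial serine hydroxymethyltransferase, by -1.61 ± 0.05 (adjusted p = 2.2e-14) and -1.95 ± 0.05 (adjusted p = 1.6e-15). In DMSO 5 of the 12 were lower in NRF2 cells and none higher, beside 16.9% of all genes lower and 19.3% higher, among them Mthfd2, a mitochondrial folate enzyme (-0.36 ± 0.06, adjusted p = 9.2e-05). The folate genes summed to 1319 to 1458 CPM in the EV libraries with DMSO, and the 3 libraries of NRF2 cells with romidepsin held 435 to 452 CPM.

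Of 26 other salvage and kinase genes tested, 12 rose and 8 fell in EV cells with romidepsin (46.2% and 30.8%, beside 39.1% and 37.4% of all genes), and 11 rose and 7 fell in NRF2 cells (42.3% and 26.9%, beside 40.5% and 39.3%). The adenylate kinases Ak1 (2.11 ± 0.10 in EV cells, adjusted p = 3.4e-12) and Ak5 (-2.09 ± 0.05, adjusted p = 1.2e-15) moved in opposite directions, and Cda, the cytidine deaminase, rose (1.13 ± 0.14, adjusted p = 2.4e-06). In NRF2 cells the 3 changes were 2.498, -2.62 and 1.16. In DMSO the NRF2 line was higher in Adssl1, the second adenylosuccinate synthetase (1.248 ± 0.12, adjusted p = 4.5e-07), and lower in Ada, the adenosine deaminase (-0.71 ± 0.10, adjusted p = 3.2e-05). Of 19 genes of nucleotide breakdown and pool cleaning, 8 rose and 5 fell in EV cells (42.1% and 26.3%) and 7 rose and 8 fell in NRF2 cells (36.8% and 42.1%) with romidepsin. The rising shares of both lists were near those of all genes. Entpd5, a nucleoside diphosphatase, rose by 1.71 ± 0.09 (adjusted p = 6.0e-12) and 1.14 ± 0.08 (adjusted p = 2.7e-10), and in DMSO was already higher in NRF2 cells (0.97 ± 0.09, adjusted p = 1.9e-07). Of 4 nucleoside transporters tested, Slc29a1, the equilibrative transporter of the plasma membrane, fell by 2.04-fold in EV cells (adjusted p = 1.1e-11) and 2.41-fold in NRF2 cells (adjusted p = 4.9e-13). The comparisons share libraries, so agreement between the lines or treatments is not independent evidence.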

How the data were processed

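Poly-A RNA of 12 libraries, 3 in each of 4 groups, was sequenced after Trizol extraction and TruSeq preparation, per the labels' protocols. Tools named in the submitters' processing notes are kallisto 0.44.0, bcl2fastq 2.19 and DESeq2 (no version), with the build GRCm38. The authors deposited estimated counts per gene symbol, rounded to whole numbers (100% of values), and a second table that is a signal, the same counts divided by 1 factor per library. Strand use is not given in the sources used here. How kallisto divided reads among similar genes could shift members with copies or overlaps.

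The members and lists were chosen with earlier results of these data known. The estimated counts were tested with edgeR 4.0.16 in R 4.3.3 (TMM factors, default filter on low counts, robust quasi-likelihood fit, 12 libraries, 8 residual degrees of freedom, two-sided) for 5 comparisons. The prior count was 0.125, and each SE was derived from the log2 fold change and its F statistic. The test was checked on simulated counts. Alternatives were other scalings and filters, DESeq2 1.42.0, limma 3.58.1 (voom, and log2 of the deposited signal plus 1), groups fitted alone, a replicate block and leaving out each library. Members given in every library were the 3 called ones with the largest change per branch and comparison at a mean of at least 5 CPM, those called in the interaction and the isozyme pairs. From the other lists at most the 3 largest changes per comparison were named. Of 18 same-numbered pairs of libraries, 0 had deviations correlated over 0.1, so no shared effect of the number was seen. Such correlations cannot tell whether same-numbered libraries came from the same experiment. Positions are from GENCODE M21 and promoter windows from RefSeq, by symbol. Rrm2b, Dhodh and Pfas had no window. Values of some single genes of the folate list are not reported here.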

Additional observations from a re-analysis of the deposited data

Results flagged for a closer look

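For 13 members the effect of romidepsin differed between the 2 lines by edgeR's interaction test, and for all 13 the effect in NRF2 cells was the more negative. The same test called 15.8% of all genes tested, 5.53% higher and 10.2% lower. In the deoxynucleotide branch the difference on the log2 scale was -1.19 for Rrm2, -0.66 for Rrm1, -0.65 for Tk1, -0.59 for Dctd, -0.48 for Dut, -0.40 for Dtymk, -0.40 for Dck and -0.38 for Tyms. In the pyrimidine branch it was -0.23 for Uck2, which rose less in NRF2 cells, and -0.21 for Ctps. In the purine branch it was -0.29 for Atic, -0.26 for Gmps and -0.20 for Paics. Calls were lost in 11 of 21 alternatives for Dtymk, 9 for Ctps, 4 for Paics, 3 for Uck2 and 1 for Gmps.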

How the results depend on the processing

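No called value changed sign under any alternative run. Of 4104 values of single members under the alternatives, 3933 kept their side of the threshold, 56 gained a call and 115 lost one. Values called in neither fit could change sign and still be among the 3933. Guk1 in the interaction was 0.005, and ran from -0.068 to 0.049 when 1 library was left out. The count of members that rose with romidepsin in EV cells, 4, was 7 with upper-quartile factors and 7 with library size alone. The count higher in NRF2 cells with DMSO, 3, was 1 with library size alone, 1 with the 2 groups fitted alone, 0 at an adjusted p under 0.01, and 0 to 5 when 1 library was left out. The count higher in NRF2 cells under romidepsin, 1, was 2 with the 2 groups fitted alone, 0 at 0.01, and 0 to 2 when 1 library was left out. The interaction called 0 members more positive, but 2 with library size alone, 1 with DESeq2, 1 with limma-voom and 0 to 1 without 1 library. It called 13 more negative, 8 at 0.01 and 8 to 22 without 1 library. The share of all genes called under these alternatives is not given here. The cause of these shifts was not tested. With a replicate block the counts of members lower were 27 for romidepsin in EV cells, 28 in NRF2 cells, 8 for NRF2 with DMSO, 27 for NRF2 under romidepsin and 12 for the interaction. No shared effect of the replicate number was seen: correlations of same-numbered libraries ran from -0.18 to 0.09, and 1 of 12 libraries was closest to its own number. Levels of genes at a few CPM rest on few counts, since 3 counts were 0.107 to 0.178 CPM. The precision of the rest is set by 3 libraries a group.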
